A study of Mus musculus with 30 samples.

Results

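Antibiotic-treated mice were compared with water-treated mice 6 h after oxaliplatin, using the 10 of 30 arrays of this time point (5 per treatment). Samples were chosen by their labels alone, and 19938 genes were tested. The antibiotic mice, labelled WT, had received an antibiotic cocktail for 3 weeks, were inoculated in the flank with EL4 cells and got 10 mg/kg oxaliplatin by intraperitoneal injection on day 7 of tumour growth. The water mice, also WT, were labelled H2O, had no antibiotics and, by the labels, were otherwise handled alike. Both sets therefore carried the same tumour line and the same platinum drug, and no tumour without oxaliplatin at 6 h was analysed here. Tumours taken at 0 h and 18 h, with 5 arrays for each treatment, give the values on either side. Whole tumours were used, which hold lymphoma cells and whatever host cells had entered, so fewer cells of a type and less RNA per cell cannot be told apart. EL4 is a mouse T cell lymphoma line, and the T cell genes Cd3g, Thy1 and Cd3e averaged 11.90, 11.87 and 11.22 log2 units in the antibiotic group.

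Oxaliplatin is a platinum compound that forms crosslinks in DNA. Damaged DNA stabilises the transcription factor p53, which switches on genes for cell cycle arrest, repair and apoptosis. A separate programme, the integrated stress response, starts when kinases that sense amino acid shortage, unfolded proteins, haem loss or double-stranded RNA phosphorylate the translation factor eIF2 alpha. Most protein synthesis then slows, while the transcription factor ATF4 is made and turns on genes for amino acid import, amino acid synthesis and tRNA charging. The gut flora that antibiotics deplete can also prime myeloid cells, which respond through Toll-like receptors, cytokines and reactive oxygen.

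ATF4 binds with C/EBP partners to a composite element whose core is TGATGNAA, and the promoters of 4 stress genes that rose with antibiotics are shown because each holds this core. They run from 250 bases before to 50 bases after the gene start and are taken from RefSeq on GRCm38.p6. Capitals mark the core on either strand. Trib3 lies on the minus strand at chr2:152344011-152344310, Chac1 on the plus strand at chr2:119350992-119351291, Slc7a11 on the minus strand at chr3:50443564-50443863 and Slc1a4 on the minus strand at chr11:20332664-20332963.
Trib3: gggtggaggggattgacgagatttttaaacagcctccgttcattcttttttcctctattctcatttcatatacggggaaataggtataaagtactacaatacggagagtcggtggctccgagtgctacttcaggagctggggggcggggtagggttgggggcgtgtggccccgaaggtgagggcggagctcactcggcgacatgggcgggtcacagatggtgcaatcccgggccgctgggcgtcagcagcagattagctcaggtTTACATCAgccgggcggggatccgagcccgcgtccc
Chac1: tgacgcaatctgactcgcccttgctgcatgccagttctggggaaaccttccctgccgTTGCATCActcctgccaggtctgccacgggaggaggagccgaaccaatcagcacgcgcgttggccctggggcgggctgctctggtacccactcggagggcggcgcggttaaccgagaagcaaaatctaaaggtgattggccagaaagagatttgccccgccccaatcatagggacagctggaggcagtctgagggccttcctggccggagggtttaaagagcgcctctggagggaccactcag
Slc7a11: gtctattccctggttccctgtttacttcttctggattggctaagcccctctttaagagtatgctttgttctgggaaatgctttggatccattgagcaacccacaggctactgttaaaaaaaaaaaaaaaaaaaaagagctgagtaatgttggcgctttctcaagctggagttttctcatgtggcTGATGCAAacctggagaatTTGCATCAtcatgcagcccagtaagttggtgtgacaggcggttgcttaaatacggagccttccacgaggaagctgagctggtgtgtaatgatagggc
Slc1a4: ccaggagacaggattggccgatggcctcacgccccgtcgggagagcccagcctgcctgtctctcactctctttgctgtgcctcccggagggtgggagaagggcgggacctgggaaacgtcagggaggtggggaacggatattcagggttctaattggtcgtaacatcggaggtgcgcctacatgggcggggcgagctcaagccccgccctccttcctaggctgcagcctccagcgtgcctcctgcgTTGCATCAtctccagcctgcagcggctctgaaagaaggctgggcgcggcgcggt
The Slc7a11 promoter holds the core 2 times and the others hold it once. Among all 32851 promoters of this length, 3.97% contained the core, and among the 19177 promoters of tested genes 3.08% did. It was present in 5 of 18 promoters (27.8%) of the stress genes that rose, and in 4 of 12 (33.3%) of the stress genes that did not pass. Promoters were available for 15 of the 17 stress genes that rose, and some genes have more than 1. Counted by gene, 5 of 15 and 4 of 10 held the core. Among all genes that rose, 18 of 217 promoters (8.29%) had it, and among all that fell 14 of 561 (2.5%) did. A match is a run of letters and not a measured binding site. The stress list was itself drawn up from genes known to respond to ATF4, so its share is a description.

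The antibiotic group differed from the water group in 752 of 19938 genes (3.77%) at an adjusted p under 0.05, by limma with Benjamini-Hochberg adjustment. Of these, 226 (1.13%) were higher with antibiotics and 526 (2.64%) were lower. The differences were small, with a median size of 0.27 log2 units. A change of at least 1.5-fold was reached by 27 genes that rose and 18 that fell, and 10 genes passed 2-fold. In 305 genes (1.53%) all 5 antibiotic arrays lay above all 5 water arrays, and in 681 genes (3.42%) all lay below. The counts rest on the spread between all 30 arrays. Fitted on the 10 arrays of this time alone, limma gave 9 genes (0.0451%), all of them among the 752. Those higher (0.0201% of all genes) were Ddit3, Eif4ebp1, Herpud1 and Tyrp1, and those lower (0.0251%) were Apaf1, Fas, Slc38a6, 1810034E14Rik and 9330175E14Rik. The antibiotic arrays were the more variable, with a median SD over genes of 0.135, against 0.0799 in the water arrays. Single arrays moved the total strongly: 192 genes passed without antibiotic array 3, 1420 without antibiotic array 5, and 333 to 452 without 1 of water arrays 1, 2, 4 or 5.

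**Figure D1:**
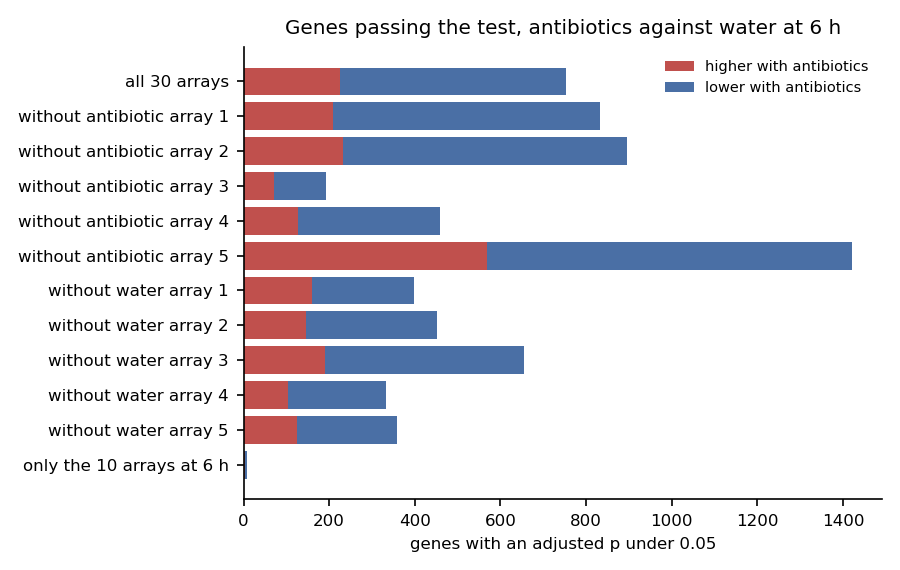
Number of genes (x axis) passing an adjusted p under 0.05 between antibiotics and water at 6 h, split into higher (red) and lower (blue), for all 30 arrays, with 1 array left out, and for the 10 arrays at 6 h alone. The total is 752 with all arrays, 192 without antibiotic array 3, 1420 without antibiotic array 5 and 9 with only the 10 arrays.

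Integrated stress genes were higher with antibiotics. Of 27 members tested, 17 rose and 0 fell, where 1.13% of all genes rose. The list was chosen with earlier results of these data known, so its counts are a description. The median difference of the list was 0.30 log2 units, beside 0.011 over all genes. In 12 members all antibiotic arrays exceeded all water arrays, where 1.53% of all genes did so. Without antibiotic array 3 there were 12 members, where 0.356% of all genes rose, and without antibiotic array 5 there were 21, where 2.85% rose. Without both there were 14, where 1.32% rose, and in the fit on 10 arrays only Ddit3 remained past the threshold.

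The regulator Atf4 itself measured 9.81, 9.80, 9.82, 9.80 and 9.68 log2 units on the antibiotic arrays, and 9.56, 9.50, 9.48, 9.48 and 9.49 on the water arrays. Every antibiotic array was above every water array, although the gap was narrow. The difference was 0.28 ± 0.04 (SE), with an adjusted p of 0.000753 by limma. Ddit3, which encodes the transcription factor CHOP that acts downstream of ATF4, measured 9.33, 9.42, 9.37, 9.15 and 9.51 with antibiotics, and 8.66, 8.74, 8.52, 8.67 and 8.84 with water. The groups were well separated. The difference was 0.67 ± 0.09, a ratio of 1.59, with an adjusted p of 0.000147 by limma.

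Trib3, a pseudokinase gene activated by ATF4 and CHOP, showed 9.01, 9.07, 9.53, 8.81 and 8.56 with antibiotics, and 7.62, 8.08, 7.71, 7.95 and 8.21 with water. No arrays overlapped, and array 5 was the lowest of its group. The difference was 1.08 ± 0.15 (2.12-fold, limma adjusted p = 0.000188). Chac1, which encodes an enzyme that breaks down glutathione, read 9.92, 9.80, 9.75, 9.45 and 8.87 with antibiotics, against 8.46, 8.83, 8.51, 8.33 and 8.77 with water. Antibiotic array 5 sat just above the highest water array. Its difference was 0.98 ± 0.17 (limma adjusted p = 0.00162).

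**Figure D2:**
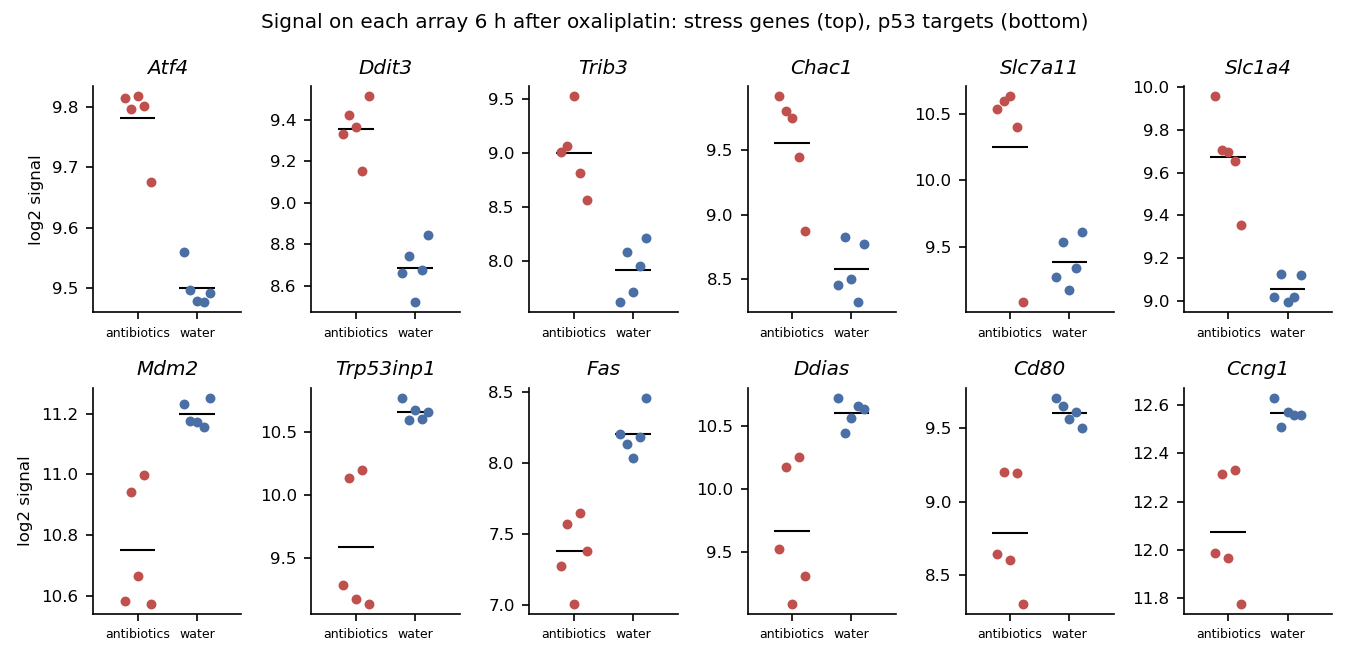
Log2 signal on each array (y axis, own scale for each gene) at 6 h for 6 stress genes (top) and 6 p53 targets (bottom), antibiotics in red and water in blue, with bars at group means. Trib3 averaged 9.00 with antibiotics and 7.91 with water, while Trp53inp1 averaged 9.59 with antibiotics and 10.66 with water. Only Slc7a11 of these 12 genes has overlapping groups.

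Amino acid carriers made up 6 of the 17 genes that rose. Slc7a11, the cystine importer that feeds glutathione synthesis, measured 10.53, 10.60, 10.63, 10.40 and 9.09 with antibiotics, and 9.28, 9.54, 9.18, 9.34 and 9.61 with water. Antibiotic array 5 fell inside the water range and the other antibiotic arrays lay above it. The difference was 0.86 ± 0.21 (limma adjusted p = 0.0202). Slc6a9, a glycine transporter, gave 10.80, 10.71, 10.77, 10.72 and 10.00 with antibiotics, and 9.61, 9.84, 9.75, 9.78 and 9.79 with water, with no overlap. Its difference was 0.85 ± 0.13 (limma adjusted p = 0.000753). Slc1a4, a carrier of neutral amino acids, gave 9.96, 9.70, 9.70, 9.65 and 9.36 with antibiotics, and 9.02, 9.12, 8.99, 9.02 and 9.12 with water. These groups did not overlap either, and the difference was 0.62 ± 0.10. Slc7a5 and Slc3a2, the paired chains of a transporter for large neutral amino acids, rose by 0.31 and 0.30, and Slc7a1, a carrier of basic amino acids, by 0.31.

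Enzymes of amino acid and one-carbon metabolism formed another group. Gpt2, a mitochondrial alanine aminotransferase, rose by 0.56 ± 0.10, and Mthfd2 and Shmt2 of mitochondrial folate metabolism rose by 0.45 and 0.27. Aldh18a1 of proline synthesis rose by 0.32, and Cth, which makes cysteine from cystathionine, by 0.27. Pck2, the mitochondrial phosphoenolpyruvate carboxykinase and no member of the list, measured 9.61, 9.76, 9.79, 9.63 and 9.02 with antibiotics, and 8.79, 8.97, 8.81, 8.95 and 8.93 with water. The groups did not overlap, and the difference was 0.67 ± 0.10 (limma adjusted p = 0.000559). Stc2, a secreted glycoprotein, and Nupr1, a stress-induced chromatin protein, rose by 0.58 and 0.35. The serine and asparagine enzymes Phgdh, Psat1 and Asns had differences of 0.20, 0.13 and 0.14 and did not pass (limma adjusted p = 0.0873, 0.11 and 0.0613). Nor did Atf3, another ATF4 target that responds to many stresses, at -0.17, or Ppp1r15a, which restores translation by dephosphorylating eIF2 alpha, at 0.27.

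Aminoacyl-tRNA synthetases load amino acids onto tRNAs, and several are ATF4 targets. Of 15 tested, 7 rose and 0 fell, where 1.13% of all genes rose, with a list median of 0.20. This list too was chosen with earlier results known, so its counts are a description. Wars read 10.85, 10.94, 10.97, 10.98 and 10.63 with antibiotics, and 10.46, 10.56, 10.52, 10.52 and 10.58 with water. The groups were separate, and the difference was 0.35 ± 0.06 (limma adjusted p = 0.00173). Cars, Yars, Sars, Eprs, Gars and Nars rose by 0.28, 0.27, 0.24, 0.24, 0.22 and 0.20. Antibiotic array 5 was the lowest of its group in all 7, as it was in 64.6% of all genes that rose. Without antibiotic array 3 the count was 4, where 0.356% of all genes rose, and in the fit on the 10 arrays it was 0, where 0.0201% rose.

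Of 21 unfolded protein genes, which include the chaperones of the endoplasmic reticulum, 1 rose, where 1.13% of all genes rose. The list median was 0.06, and 14 differences were positive, where 46.1% of all genes had a negative difference. At an unadjusted limma p under 0.05, 6 members passed, where 19.9% of all genes did. The gene that rose was Herpud1, which helps to degrade misfolded proteins, at 10.87, 10.83, 10.92, 10.89 and 11.12 with antibiotics and 10.43, 10.50, 10.27, 10.41 and 10.47 with water. The groups were separate and the difference was 0.51 ± 0.06 (limma adjusted p = 0.000147). The chaperone Hspa5 differed by 0.02 and Xbp1, a transcription factor of the unfolded protein response, by 0.12, neither passing. Eif4ebp1, an inhibitor of cap-dependent translation picked out after its values were seen, read 10.54, 10.54, 10.58, 10.58 and 10.54 with antibiotics, and 10.08, 10.26, 10.13, 10.11 and 10.26 with water. The antibiotic arrays were tightly grouped above the water arrays, by 0.39 ± 0.07.

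The antibiotic arrays did not carry the stress pattern evenly. Array 5 was the lowest of its group in 13 of the 17 stress genes that rose (76.5%), in 64.6% of all genes that rose and in 34.3% of all genes. The same array had the highest skeletal muscle signal, with a list mean of 1.29, against -0.58 to 0.07 on the other antibiotic arrays and -0.55 to 0.16 on the water arrays. The part of muscle RNA in these values was not tested. With the muscle and keratinocyte means as covariates, 21 stress genes rose, where 2.08% of all genes did.

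The stress difference was already present at 0 h. The list mean was 0.25 to 0.33 with antibiotics and -0.12 to 0.09 with water at 0 h, relative to each gene's mean over 30 arrays. At 6 h it was 0.08 to 0.35 with antibiotics and -0.20 to -0.02 with water. At 18 h it was -0.24 to 0.02 with antibiotics and -0.39 to -0.27 with water. At each time every antibiotic array was above every water array of that time. Between treatments, 6 members rose at 0 h, where 0.0903% of all genes were higher, and 15 at 18 h, where 4.52% were. The difference of Trib3 was 0.80 at 0 h and 0.44 at 18 h, beside 1.08 at 6 h, and neither contrast between times passed (limma adjusted p = 0.652 and 0.0651).

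**Figure D3:**
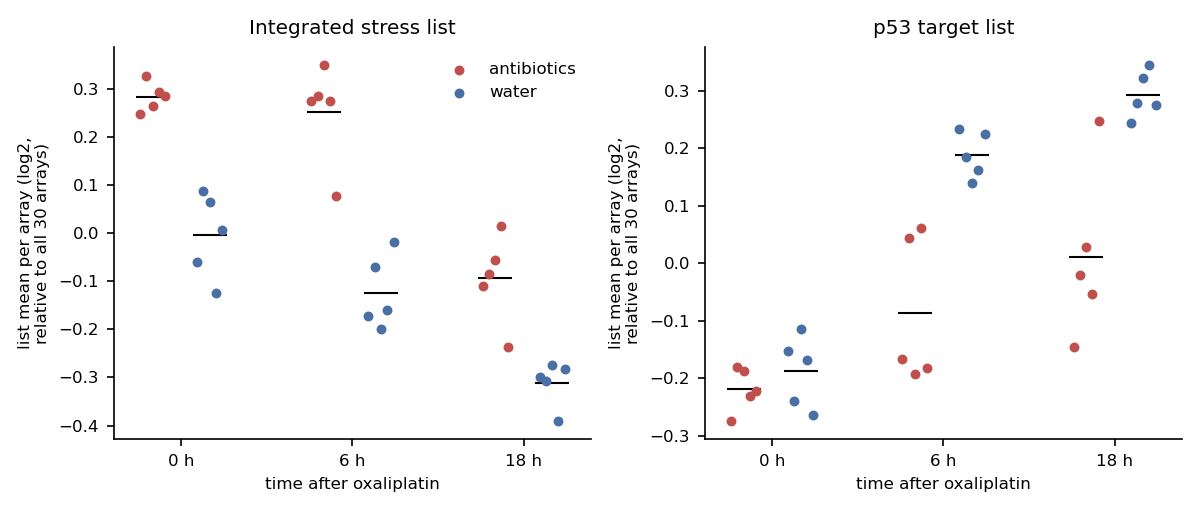
Mean of the integrated stress list (left) and of the p53 target list (right) on each array, in log2 units relative to the mean of all 30 arrays, by time after oxaliplatin; antibiotics red, water blue, bars at group means. Stress means with antibiotics are above those with water at 0, 6 and 18 h, while p53 means overlap at 0 h and are separate at 6 h.

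Targets of p53 were lower with antibiotics 6 h after the drug. Of 34 members tested, 13 fell and 0 rose, where 2.64% of all genes fell. The p53 list was chosen with earlier results of these data known, so its counts are a description. The list median was -0.18 log2 units. In 12 members all antibiotic arrays lay below all water arrays, where 3.42% of all genes did so. Without antibiotic array 3 the count was 10, where 0.607% of all genes fell, and without antibiotic array 5 it was 14, where 4.27% fell. Without both it was 8, where 0.838% fell, and in the fit on 10 arrays only Fas passed. Cdkn1a, which encodes the p53-induced cell cycle inhibitor p21, was not analysed here.

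Mdm2, the ubiquitin ligase that p53 induces and that degrades p53, measured 10.58, 10.94, 10.66, 11.00 and 10.57 with antibiotics, and 11.23, 11.18, 11.17, 11.16 and 11.25 with water. All antibiotic arrays were below the water arrays, with arrays 2 and 4 closest to them. The difference was -0.45 ± 0.08 (limma adjusted p = 0.00162). Before the drug, Mdm2 lay between 10.45 and 10.71 on the 10 arrays of both treatments. Antibiotic arrays 1, 3 and 5 at 6 h were inside that 0 h range.

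Trp53inp1, a stress protein that promotes p53 activity, read 9.29, 10.14, 9.18, 10.20 and 9.14 with antibiotics, and 10.77, 10.59, 10.68, 10.61 and 10.66 with water. Arrays 2 and 4 again stood highest in the antibiotic group, and the 0 h arrays ran from 8.75 to 9.48. The difference was -1.07 ± 0.18, lower by a factor of 2.10 (limma adjusted p = 0.00162). Prrg4, a membrane protein gene outside the list, had the most negative difference of the genes whose groups did not overlap, at -1.10 ± 0.19. It read 8.22, 8.96, 7.80, 8.77 and 7.95 with antibiotics and 9.73, 9.41, 9.41, 9.37 and 9.31 with water, again highest on arrays 2 and 4.

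Death and arrest genes were among those that fell. Fas, the death receptor, measured 7.28, 7.57, 7.01, 7.65 and 7.38 with antibiotics, and 8.21, 8.14, 8.04, 8.19 and 8.46 with water. The groups did not overlap, and the difference was -0.83 ± 0.15 (limma adjusted p = 0.00212). Apaf1, the core of the caspase-activating apoptosome and not on the list, read 9.87, 10.15, 9.82, 10.00 and 9.73 with antibiotics, and 10.43, 10.38, 10.45, 10.41 and 10.50 with water. It fell by 0.52 ± 0.08 on the log2 scale. Ccng1, a cyclin induced by p53, read 11.99, 12.31, 11.97, 12.33 and 11.78 with antibiotics, and 12.63, 12.51, 12.57, 12.56 and 12.56 with water. It fell by 0.49 ± 0.08. Btg2, an antiproliferative gene, Pidd1, a death-domain adaptor, and Zmat3, an RNA-binding protein, fell by 0.53, 0.52 and 0.60, and Gtse1, a regulator of p53, and Ei24 fell by 0.42 and 0.41. The death genes Bbc3 and Pmaip1 differed by 0.03 and -0.05 and did not pass.

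Ddias, an apoptosis suppressor induced by DNA damage, read 9.52, 10.17, 9.10, 10.25 and 9.32 with antibiotics, and 10.72, 10.44, 10.56, 10.65 and 10.63 with water, and fell by 0.93 ± 0.17. Cd80, a costimulatory ligand for T cells, read 8.64, 9.20, 8.60, 9.20 and 8.30 with antibiotics, and 9.71, 9.65, 9.56, 9.61 and 9.50 with water, and fell by 0.82 ± 0.17. Neither gene had overlapping groups. The call for Cd80 was lost without antibiotic arrays 3 and 5 (limma adjusted p = 0.0795) and without the 3 arrays that carry most keratinocyte or muscle signal (0.0705). Among repair genes of the list, Ercc5, an endonuclease of nucleotide excision repair, and Polk, a translesion polymerase, fell by 0.54 and 0.42. Sesn2 belongs to both the p53 and the stress list. It read 9.69, 10.14, 9.96, 10.34 and 8.96 with antibiotics and 9.90, 9.86, 9.85, 9.87 and 9.99 with water. The antibiotic arrays spread to both sides of the water arrays, and the difference of -0.07 did not pass and turned positive in 5 of 21 other settings.

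The antibiotic arrays divided in the same way across these genes. Arrays 2 and 4 were the highest pair of the antibiotic group in 12 of the 13 genes that fell (92.3%), in 26.4% of all genes that fell and in 8.72% of all genes. The p53 list mean was 0.04 and 0.06 on those arrays, and -0.17, -0.19 and -0.18 on antibiotic arrays 1, 3 and 5. The water arrays ran from 0.14 to 0.23. At 0 h the means overlapped, from -0.27 to -0.18 with antibiotics and from -0.26 to -0.11 with water. At that time 0 members passed, where 0.0903% of all genes were higher and 0 genes were lower. That count therefore does not show an absence of change in the list. At 18 h they ran from -0.14 to 0.25 with antibiotics and 0.24 to 0.35 with water, with 12 members lower, where 3.34% of all genes were lower, and 1 higher. No gene of the whole table passed the test that its difference at 6 h exceeds that at 0 h, so the p53 difference is not shown to be larger after the drug. The contrast was -0.40 for Mdm2 and -0.88 for Trp53inp1, each with a limma adjusted p of 0.336.

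DNA repair genes had mostly negative differences, and few passed. Of 22 tested, 3 fell, where 2.64% of all genes fell, and 1 rose, where 1.13% did. The list median was -0.15, 20 of the 22 differences were negative, where 46.1% of all genes had a negative difference, and 14 members had an unadjusted limma p under 0.05, where 19.9% of all genes did. In 5 members all antibiotic arrays lay below all water arrays, where 3.42% of all genes did so. Without antibiotic array 3, 1 member fell, where 0.607% of all genes fell, and without antibiotic arrays 3 and 5, 0 did, where 0.838% fell. Brca1, of homologous recombination, fell by 0.30 ± 0.07, Rev1, a translesion polymerase, by 0.27 ± 0.06 and Fanci, of the Fanconi pathway, by 0.24 ± 0.06. Ercc1, the partner of a nuclease that cuts at crosslinks, rose by 0.26 ± 0.05. By limma, mitosis genes gave 0 calls in 25, DNA replication genes 0 in 30 and replication histones 0 in 15 (8, 5 and 5 at an unadjusted p under 0.05), while in 4 of the 15 histone genes all antibiotic arrays lay above all water arrays, where 1.53% of all genes did so. The histone list mean ran from 0.07 to 0.18 with antibiotics and from -0.09 to 0.02 with water, so that every antibiotic array was above every water array.

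**Figure D4:**
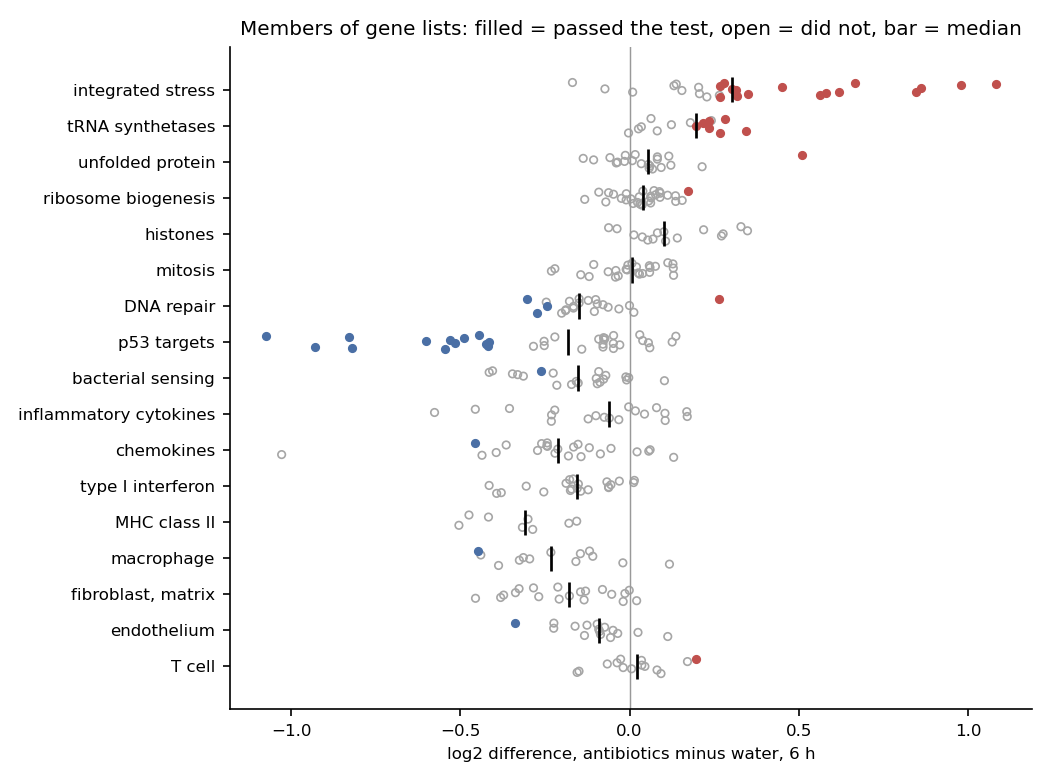
Log2 difference (antibiotics minus water, 6 h; x axis) of every tested member of 17 gene lists, filled where the gene passed the test and open where it did not, with a bar at each list's median. Filled points to the right lie mainly in the integrated stress and tRNA synthetase lists (17 and 7), and those to the left in the p53 list (13).

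Other genes that fell had low p-values without belonging to a list. Slc38a6, a transporter-like gene of the amino acid carrier family, read 8.95, 8.99, 8.72, 8.85 and 8.96 with antibiotics, and 9.34, 9.34, 9.30, 9.23 and 9.29 with water. Its groups were clearly apart, and the difference was -0.41 ± 0.05 (limma adjusted p = 0.000147). Mybl1, a MYB family transcription factor, fell by 0.70 ± 0.11, and its arrays read 9.34, 9.81, 9.05, 9.82 and 9.35 with antibiotics and 10.24, 10.10, 10.19, 10.20 and 10.16 with water. Ccp110, a centriole protein, fell by 0.59 and Btbd8 by 0.54. A further 3 genes were picked out after their values were seen: Abcb1b, a drug efflux pump, Slamf1, a lymphocyte surface receptor, and Il18r1, a chain of the interleukin 18 receptor. They fell by 0.58, 0.56 and 0.64.

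Of 165 immune and inflammatory genes 3 passed, where 3.77% of all genes did. Most of their differences were negative: 141 of 165, with a median of -0.15, where 46.1% of all genes had a negative difference. Of the reactive oxygen list 0 of 12 passed, of inflammatory cytokines 0 of 19, of NF-kB targets 0 of 14, of type I interferon genes 0 of 21, of interferon gamma and MHC class I genes 0 of 17 and of phagocytosis genes 0 of 21. At an unadjusted p under 0.05 by limma, where 19.9% of all genes passed, the 6 lists had 1, 3, 5, 1, 1 and 6 genes in that order. Cybb, the catalytic subunit of the phagocyte NADPH oxidase, read 9.75, 9.27, 9.18, 9.33 and 10.65 with antibiotics and 9.75, 9.91, 9.86, 9.66 and 10.15 with water. Antibiotic array 5 was the highest of all 10 and arrays 2, 3 and 4 were the lowest, and the difference was -0.23 ± 0.23 (limma adjusted p = 0.581).

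Nos2, the inducible nitric oxide synthase, read 8.29, 8.10, 8.33, 8.49 and 9.74 with antibiotics and 8.57, 9.13, 8.48, 8.60 and 9.15 with water, again with array 5 highest. Tnf, the macrophage cytokine, read 9.24, 9.21, 9.08, 9.17 and 9.00 with antibiotics and 9.18, 9.31, 8.96, 9.03 and 9.23 with water. These groups overlapped fully, and its difference of -0.0024 turned positive in 10 of 21 other settings. The cytokines Il1b, Il6 and Il12b differed by -0.35, -0.46 and 0.17, the chemokine Cxcl10 by -0.44 and the oxidase subunit Ncf1 by -0.13. None of these 7 genes passed.

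Calls were limited to 1 gene in each of 3 lists. Myd88, the adaptor through which most Toll-like receptors signal, read 9.77, 9.91, 9.83, 9.73 and 9.86 with antibiotics and 10.10, 10.03, 10.10, 10.10 and 10.07 with water. The groups were separate, and it fell by 0.26 ± 0.06 (limma adjusted p = 0.018). Cxcl16, a chemokine for activated T cells, read 8.34, 8.47, 8.32, 8.16 and 7.96 with antibiotics and 8.85, 8.66, 8.76, 8.51 and 8.75 with water, and fell by 0.46 ± 0.12. Ms4a7, a macrophage membrane gene, read 8.85, 8.68, 8.47, 8.56 and 8.66 with antibiotics and 9.18, 8.86, 9.24, 8.92 and 9.25 with water, and fell by 0.45 ± 0.13. All 3 calls were lost without antibiotic array 3.

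Antibiotic array 5 stood apart in these lists. The MHC class II list mean was -0.13, -0.74, -0.49, -0.46 and 0.44 with antibiotics, and 0.09, 0.02, 0.07, -0.10 and 0.19 with water. Antibiotic arrays 1 to 4 were below every water array and array 5 was above every one. All 8 members had negative differences, with a median of -0.31, and 0 passed by limma (4 at an unadjusted p under 0.05). Over all genes 46.1% had a negative difference, 3.77% passed and 19.9% did so at the unadjusted p. The type I interferon mean was -0.25, -0.32, -0.35, -0.31 and 0.55 with antibiotics, and -0.04, 0.09, -0.05, 0.03 and 0.12 with water, in the same arrangement. Without array 5, 5 of 8 MHC class II genes fell, among them Cd74, the class II invariant chain, by 0.79 and H2-Aa, a class II chain, by 0.69. Over 165 immune genes, 19 fell and 1 rose without that array, where 4.27% of all genes fell, against 3 calls with it. Il18, an interleukin activated by the inflammasome, C5ar1, a complement receptor, and Tlr4, the lipopolysaccharide receptor, were among the 19, at -0.85, -0.58 and -0.63. The calls for MHC class II fell back to 0 when antibiotic array 3 was also left out. Array 5 had the highest list mean of the 10 for muscle (1.29), for hypoxia and glycolysis (0.73) and for clock genes (0.29). Whether it held more host tissue was not tested.

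**Figure D5:**
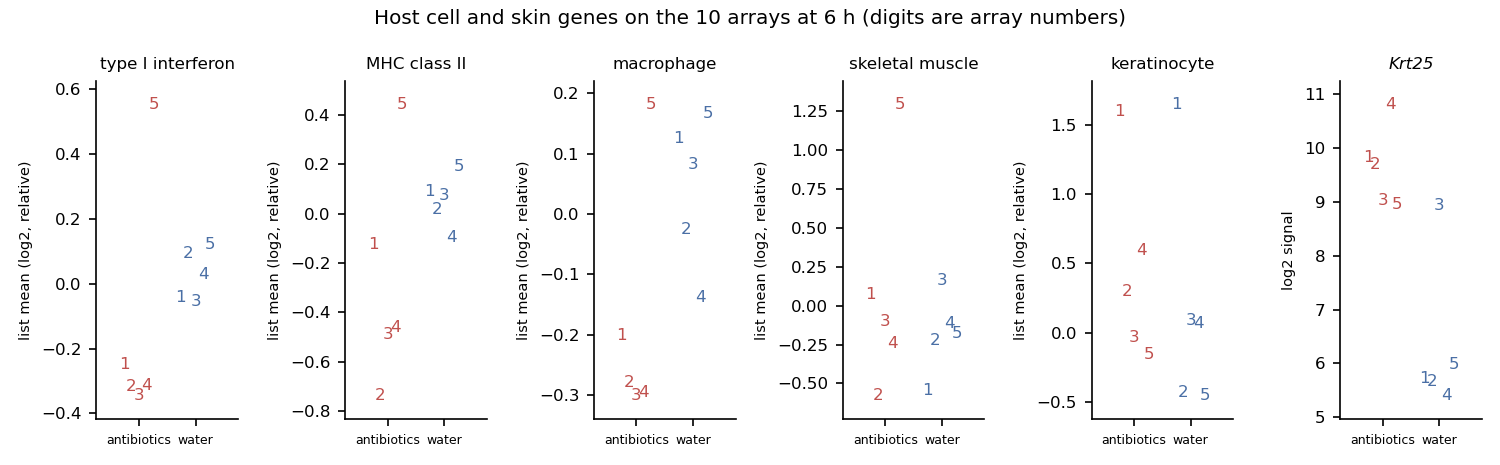
List means of host cell genes (log2, relative to all 30 arrays) and Krt25 (log2 signal) on the 10 arrays at 6 h, digits giving the array number, antibiotics in red and water in blue. Antibiotic array 5 is the highest of its group in the type I interferon (0.55), MHC class II (0.44), macrophage (0.18) and skeletal muscle (1.29) panels.

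Hair follicle and pigment genes had large differences that varied widely between arrays. Krt25, an inner root sheath keratin, read 9.82, 9.69, 9.02, 10.80 and 8.95 with antibiotics, and 5.72, 5.67, 8.94, 5.40 and 5.99 with water. Water array 3 reached the level of the lowest antibiotic array, and the difference of 3.31 ± 0.98 did not pass (limma adjusted p = 0.0532). At 0 h it already ran from 5.46 to 10.46 over both treatments. Krt28, of the same sheath, read 7.32, 7.15, 6.65, 8.46 and 6.58 with antibiotics and 5.60, 5.49, 6.55, 5.69 and 5.13 with water, and rose by 1.54 ± 0.43 (limma adjusted p = 0.0407). That call was lost in 15 of 20 other settings.

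Tyrp1, a melanosome enzyme, read 7.29, 6.43, 6.72, 7.34 and 6.80 with antibiotics and 5.83, 5.79, 5.98, 5.76 and 5.60 with water. It rose by 1.12 ± 0.32 with no overlap (limma adjusted p = 0.0472), while its 0 h range was 5.58 to 7.87. Its call too was lost in 15 of 20 other settings. Dct, Krt73 and Pmel, chosen after their values were seen, rose by 0.97, 1.55 and 0.43. Of the keratinocyte list, 0 of 16 genes passed, and its mean ran from -0.16 to 1.60 with antibiotics and from -0.45 to 1.65 with water. Of the skeletal muscle list 0 of 19 passed, and in both lists 0 had an unadjusted limma p under 0.05. Over all genes 3.77% passed, and 19.9% at the unadjusted p. The part of skin taken with a tumour in these differences was not tested.

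Single genes of other lists passed. Ciart, a repressor of the circadian clock, rose by 0.52 ± 0.11, reading 8.63, 8.41, 8.29, 8.52 and 8.77 with antibiotics and 8.00, 8.11, 7.91, 7.99 and 8.02 with water. Of the other 16 clock genes 0 passed, where 3.77% of all genes did. Slc39a8, a zinc and manganese importer, rose by 0.59, Tsc22d3, a glucocorticoid-induced gene, by 0.33, Cd3d, a chain of the T cell receptor complex, by 0.20 and Pes1, of ribosome assembly, by 0.17. Flt1, a receptor for vascular growth factors, fell by 0.34 as 1 of 16 endothelial genes, where 2.64% of all genes fell. In the fibroblast and matrix list 0 of 19 passed by limma (6 at an unadjusted p under 0.05), with a median of -0.18. Over all genes 3.77% passed, and 19.9% at the unadjusted p. Most differences in both lists were negative, 14 of 16 and 18 of 19, where 46.1% of all genes had a negative difference.

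The differences at 6 h were set beside those at the other times, which use other arrays. Of the 226 genes that rose, 156 (69.0%) had the same sign at 0 h and 144 (63.7%) at 18 h. Of the 526 that fell, 391 (74.3%) had the same sign at 0 h and 300 (57.0%) at 18 h. The matching share over all genes is not given here, so these shares only describe the called genes. The sizes were smaller at those times. These genes were picked for passing at 6 h, which favours larger sizes at 6 h in advance, so no peak at 6 h can be read from them. The median of the genes that rose was 0.27 at 6 h, 0.06 at 0 h and 0.05 at 18 h. For those that fell it was -0.26, -0.05 and -0.03. No gene passed the test of 6 h against 0 h, where the smallest limma adjusted p was 0.0695, for Lgals12, and 1964 genes had an unadjusted p under 0.05. Against 18 h, 1058 genes passed: 194 (0.973%) had a more positive difference at 6 h and 864 (4.33%) a more negative one. Among those more negative at 6 h were Smc2, a condensin subunit, at -0.22 at 6 h and 0.28 at 18 h, Stag1, a cohesin subunit, at -0.19 and 0.31, and Insig1, of sterol control, at -0.13 and 0.61. Brca1 was also in this set, at -0.30 at 6 h and 0.19 at 18 h. Herpud1 went the other way, at 0.51 at 6 h and 0.09 at 18 h (limma adjusted p of the contrast 0.0101).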

How the data were processed

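Total RNA from 30 tumours was amplified and hybridised to Affymetrix mouse gene arrays, per the labels. The authors deposited log2 values. The submitters' processing notes name Partek 6.6, without the steps it ran; the summary and scaling of probes are not given in the labels or the file. Of 28853 rows, 21775 had 1 gene symbol. The row with the highest mean stood for each of 19938 genes, and the 7078 other rows were tested separately. A model with 6 group means was fitted to all 30 arrays in limma 3.58.1 (R 4.3.3; functions lmFit and eBayes), two-sided, with Benjamini-Hochberg adjustment over all genes. Errors are model SEs unless said otherwise. The script was tested on simulated data. The number of arrays limits precision.

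Arrays are numbered within a group in the order of deposit. The labels do not say that each sample came from a separate mouse, so p-values measure the spread between samples, which may be technical. The 41 gene lists hold 823 planned members, of which 738 were tested. Members and lists were chosen with earlier results of these data known. Named genes were the 10 of smallest p in each direction, the 5 most positive and 5 most negative among non-overlapping genes, a fixed set for the question (among them Cybb, Tnf, Mdm2, Trib3), up to 4 passing members of each list (otherwise the 1 or 2 of smallest p), and up to 5 genes in each direction of the tests between times. Genes named beyond these are further list members or are marked as chosen after values were seen. Alternatives covered scaling, filters, array weights, tissue covariates, other fits and leaving out each array.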

Additional observations from a re-analysis of the deposited data

Results flagged for a closer look

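In 88 sets of 5 arrays, 11 had 1 array far from the other 4 by Dixon's test, where chance gives about 1 in 20. Antibiotic array 5 was far below its group in Atf4 (9.68, next 9.80), Slc7a11 (9.09, next 10.40), Slc6a9 (10.00, next 10.71), Pck2 (9.02, next 9.61) and the integrated stress list mean (0.0776, next 0.274). The same array was far above its group in Nos2 (9.74, next 8.49) and Cxcl10 (8.88, next 7.37). It also had the highest muscle list mean, and the part of this in the other values was not tested.

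Water arrays stood apart in 4 sets. Array 1 was high in Atf4 (9.56, next 9.50), in Prrg4 (9.73, next 9.41) and in the keratinocyte list mean (1.65, next 0.0881). Array 3 was high in Krt25 (8.94, next 5.99).

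The antibiotic difference at 6 h was tested against that at 18 h, and 1058 genes differed. Among the named ones it was more positive at 6 h for Ctdsp2 (by 0.37), Abhd4 (0.40) and Eefsec (0.36). It was more negative at 6 h for Smc2 (-0.50), Slc39a10 (-0.84), Rad54b (-0.53), Stag1 (-0.50) and Insig1 (-0.74).

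Rows that do not carry exactly 1 gene symbol entered no comparison above. Of these 7078 rows, 41 (0.579%) passed the same test between antibiotics and water at 6 h, 11 of them higher and 30 lower.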

How the results depend on the processing

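The count of 752 genes depends on the spread assumed and on single arrays. It was 9 with only the 10 arrays, 12 with those less antibiotic array 3, and 473 with those less arrays 3 and 5, which have the least weight; all times less both arrays gave 431 (these 3 settings without array 3 were added after seeing the data). It was 443 after subtracting array medians, 1266 with array weights and 1286 with keratinocyte and muscle covariates. Without the 3 arrays that carry most keratinocyte or muscle signal it was 1140. It was 1108 among genes above the median level, 45 at 1.5-fold or more, and 3969 at an unadjusted p under 0.05. Leaving out 1 array gave 192 to 1420. Scaling moved the split: 226 higher and 526 lower as deposited, 161 and 282 after medians, and 378 and 438 after quantile normalization. The test of 6 h against 0 h gave 0 to 1 genes with 1 array left out, and that of 6 h against 18 h gave 511 to 1538. The cause of these shifts was not tested.

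With 1 array left out, stress genes that rose numbered 12 to 21, p53 targets that fell 10 to 14 and synthetases that rose 4 to 9; at least 1.5-fold was met by 6, 5 and 0. The difference of Tnf was positive with quantile normalization (0.0508), array weights (0.0339) and covariates (0.0165). It was also positive without the 3 arrays of most keratinocyte or muscle signal (0.0209) and without the 2 arrays of least weight (0.064). In 5 settings that left out 1 array it was positive too (-0.0483 to 0.0395 over all 10). The difference of Sesn2 was positive with weights (0.0899) and with covariates (0.076). It was also positive without the 3 arrays of most keratinocyte or muscle signal (0.255) or the 2 of least weight (0.166). Without antibiotic array 5 it was 0.141, within -0.202 to 0.141 over all 10. Neither passed in any of these.

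No paired analysis was possible because samples are numbered in 1 run over all groups, so that no number is shared by 2 treatments. Whether handling order followed group cannot be told apart from treatment.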

Other observations

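Housekeeping and stress lists outside the stress, p53 and immune groups were also compared at 6 h. Over all genes 3.77% passed, so 0 calls in lists this small do not show an absence of change. By limma 0 genes passed among 25 of oxidative phosphorylation, 12 of heat shock, 23 immediate early genes, 25 of hypoxia and glycolysis, 20 of antioxidant defence and 22 of sterol and fatty acid synthesis. At an unadjusted p under 0.05 these lists had 1, 4, 5, 1, 4 and 3 genes, where 19.9% of all genes passed. The hypoxia and glycolysis list mean was -0.14, -0.20, -0.20, -0.10 and 0.73 on the antibiotic arrays. On the water arrays it ran from -0.07 to 0.14, below antibiotic array 5 and above the others. Nob1, of ribosome maturation, differed by 0.16 and Ern1, a sensor of unfolded proteins, by 0.21, and neither passed. Of 30 ribosome biogenesis genes 22 had positive differences, with a list median of 0.04, where 46.1% of all genes had a negative difference.

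Lists of further host cells had 0 calls by limma: 11 alternatively activated macrophage genes, 17 neutrophil genes, 11 dendritic cell genes, 17 NK and cytotoxic genes, 10 B and plasma cell genes, 13 mast cell and eosinophil genes, 9 adipocyte genes and 9 erythroid and platelet genes. At an unadjusted p under 0.05 they had 0, 2, 2, 1, 1, 1, 1 and 1. Over all genes 3.77% passed, and 19.9% at the unadjusted p, so 0 calls in such short lists do not show an absence of change. The alternatively activated macrophage mean lay below every water array on 4 antibiotic arrays and above every one on 1. The neutrophil collagenase Mmp8 differed by -0.62 ± 0.20 (limma adjusted p = 0.0701), and Gzmb, a cytotoxic granule protease, by -0.54 ± 0.29 (0.298).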
